A study of Mus musculus with 14 samples.

Results

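The genes described here are 9 members of the T-box family, T (brachyury), Tbx1, Tbx2, Tbx4, Tbx5, Tbx6, Tbx15, Tbx18 and Tbx20, measured in mouse embryonic stem cells. They are some of the family members outside those best known from pluripotent cells and trophoblast. They were found in both deposited count tables by the Ensembl gene IDs that a mouse annotation pairs with these symbols, and they make up 9 of the 37991 genes listed. All 9 were matched. Embryonic stem cells of the line J1, on the strain background 129S4/SvJae, were sequenced as poly(A) RNA in 14 libraries that form 7 groups of 2.

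Experiment 1 held 4 groups: wild-type cells with DMSO (the solvent, used as vehicle), wild-type cells with PRT4165, TKO cells with DMSO and TKO cells with PRT4165. PRT4165 is a small molecule that inhibits the histone H2A ubiquitin ligase activity of Polycomb repressive complex 1. TKO cells lack Dnmt1, Dnmt3a and Dnmt3b, the DNA methyltransferases that copy and place DNA methylation. Experiment 2 held 3 groups with no treatment named: wild-type, TKO, and Tet1-KO TKO cells, which carry the same triple knockout and also lack Tet1, an enzyme that oxidises methylated cytosine. The labels do not say how many clones each genotype stands for, so genotype and cell line cannot be told apart. They number the replicates without saying that they were separate cultures, so each p-value measures only the spread between these libraries, which may be technical.

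T-box proteins are transcription factors that share a DNA-binding domain, the T-box, and recognise related short DNA elements. T is needed for posterior mesoderm and notochord, Tbx6 for paraxial mesoderm, Tbx1 for the pharyngeal apparatus, Tbx15 and Tbx18 for mesenchyme of the skin, skeleton, somites and urogenital tract, and Tbx2, Tbx4, Tbx5 and Tbx20 for heart, limb, lung and other organs. In undifferentiated embryonic stem cells such regulators of later development are mostly silent or near silent, and many of their promoters are known targets of Polycomb complexes. By sequence the family is divided into subfamilies, and the results follow that division: Tbx1, Tbx15, Tbx18 and Tbx20 in one, Tbx2, Tbx4 and Tbx5 in another, T in the founding one, and Tbx6 in a further one.

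Promoter windows were taken from RefSeq (assembly GRCm38.p6), from 250 bases before to 50 bases after an annotated start, and were available for 6 of the 9 genes, with 2 windows for Tbx1. Each is 300 bases long and is written on the gene's strand, 5′ to 3′, with every CG dinucleotide, the site of DNA methylation in mammals, in capitals. The following 4 are shown because these genes gave the widest contrasts among the results: Tbx1 and Tbx18 responded to genotype and inhibitor, Tbx20 moved the other way, and T was not called in any comparison.
Tbx1 (chr16:18588850-18589149, minus strand): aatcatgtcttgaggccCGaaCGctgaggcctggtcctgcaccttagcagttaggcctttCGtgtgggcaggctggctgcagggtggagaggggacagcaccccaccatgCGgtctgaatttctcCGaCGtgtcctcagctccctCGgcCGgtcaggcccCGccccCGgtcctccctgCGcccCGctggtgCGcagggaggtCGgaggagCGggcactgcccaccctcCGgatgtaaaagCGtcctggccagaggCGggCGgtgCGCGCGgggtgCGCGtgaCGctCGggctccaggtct
Tbx18 (chr9:87731211-87731510, minus strand): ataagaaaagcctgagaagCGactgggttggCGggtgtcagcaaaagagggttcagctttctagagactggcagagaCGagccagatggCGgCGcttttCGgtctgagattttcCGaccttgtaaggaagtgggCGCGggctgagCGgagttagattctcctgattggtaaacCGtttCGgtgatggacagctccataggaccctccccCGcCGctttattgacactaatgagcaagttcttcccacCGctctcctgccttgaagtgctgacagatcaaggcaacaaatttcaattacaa
Tbx20 (chr9:24774254-24774553, minus strand): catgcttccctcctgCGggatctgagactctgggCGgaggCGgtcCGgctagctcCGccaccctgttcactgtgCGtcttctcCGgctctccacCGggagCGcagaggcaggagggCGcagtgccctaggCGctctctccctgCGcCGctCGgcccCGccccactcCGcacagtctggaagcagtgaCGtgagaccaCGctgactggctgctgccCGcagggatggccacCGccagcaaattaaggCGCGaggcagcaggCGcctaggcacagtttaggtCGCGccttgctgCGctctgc
T (chr17:8434173-8434472, plus strand): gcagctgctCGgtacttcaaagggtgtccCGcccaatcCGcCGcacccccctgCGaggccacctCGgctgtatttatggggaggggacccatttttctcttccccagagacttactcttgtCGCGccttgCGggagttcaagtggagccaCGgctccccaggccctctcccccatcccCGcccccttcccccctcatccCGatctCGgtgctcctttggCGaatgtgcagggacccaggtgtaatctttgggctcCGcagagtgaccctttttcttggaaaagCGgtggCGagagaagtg

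These windows differed in CG content. The Tbx1 window above held 26 CG, as did that of Tbx20, while T had 17, the other Tbx1 window (chr16:18590622-18590921) 16, Tbx18 15, Tbx4 (chr11:85896515-85896814) 8 and Tbx6 (chr7:126781233-126781532) 7. Over all 32851 windows in the table the median was 7 CG, with quartiles of 3 and 20. The windows of Tbx1 and Tbx20 with 26 CG therefore held more than 83.1% of all windows, and that of Tbx18 more than 65.4%. The Tbx1 window shown above had the same CG count as that of Tbx20, and the other Tbx1 window had fewer. Whether CG count bears on the changes given further on was not tested. Exact matches were searched on both strands for GGTGTGA, a short T-box element, CACGTG, an E-box, and TTCCCGC, an E2F6 site. None of the 7 windows held any of them, against 3.98%, 7.15% and 4.6% of all windows. This says only that these letters are not in these windows.

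**Figure D1:**
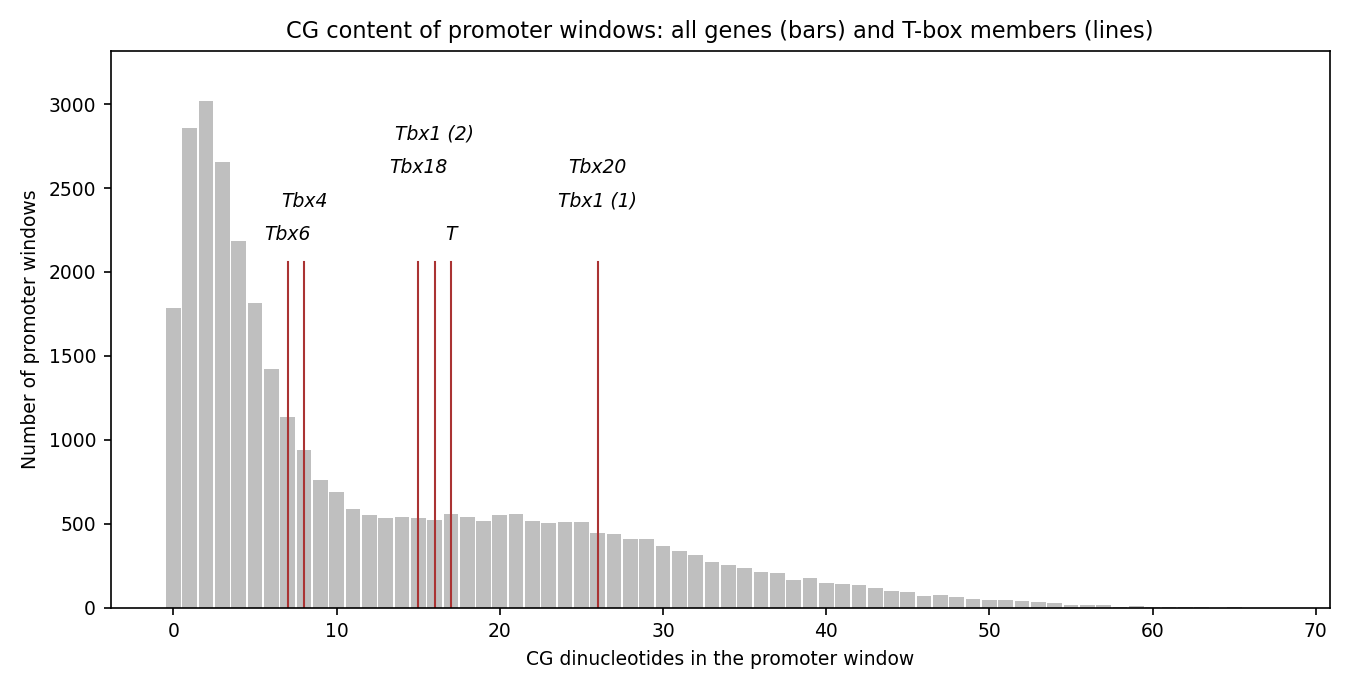
Number of CG dinucleotides in 300-base promoter windows (horizontal axis) against the number of windows with that count (vertical axis), for all 32851 windows (grey bars). Red lines mark the 7 windows of the T-box genes, which lie between 7 and 26 CG. The numbers in brackets tell the 2 Tbx1 windows apart.

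All 9 genes were scarce in these cells. Levels are given as CPM, read counts relative to library size after TMM scaling within an experiment, and since the experiments were scaled apart a level in one is set beside a level in the other only as a description. The 9 genes together reached 5.14 and 5.75 CPM in the wild-type vehicle libraries, 9.15 and 7.78 in wild type with PRT4165, 8.11 and 8.90 in TKO with vehicle, and 14.4 and 15.8 in TKO with PRT4165. In experiment 2 their sum was 2.15 and 3.62 CPM in the wild-type libraries, 6.59 and 6.84 in the TKO libraries, and 6.63 and 7.75 after loss of Tet1 as well. In experiment 1 the sum was thus lowest in wild type with vehicle and highest in TKO with inhibitor, with no overlap between these and any other group. In experiment 2 the wild-type libraries lay below all others. The sum is weighted towards few genes. By mean level Tbx20 held 3.60 of 5.45 CPM in wild type with vehicle, and Tbx1 6.40 of 15.1 in TKO with PRT4165. With PRT4165 Tbx1 went from 0.322 to 2.48 CPM in wild type and from 1.61 to 6.40 in TKO. Libraries held between 23354015 and 41844823 counts, so levels under 1 CPM rest on few reads and counting error is a large share of their error. In bulk RNA a change in the number of cells that express a gene and a change in RNA per cell cannot be told apart.

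Ranked per kilobase of annotated exon, Tbx20 led in wild-type cells with vehicle at 0.30 CPM per kilobase, ahead of T at 0.191. In the other 3 groups of experiment 1 Tbx1 led, at 0.704 in wild type with PRT4165, 0.458 in TKO with vehicle and 1.82 in TKO with PRT4165. This order depends on exon length, taken as 11.997 kilobases for Tbx20 and 3.517 for Tbx1. The annotation used in counting is not known. In CPM Tbx20 stood above Tbx1 in wild type with PRT4165 (means 3.09 and 2.48) and in TKO with vehicle (1.76 and 1.61). In experiment 2 T (0.164) and Tbx1 (0.163) were level in wild type, and Tbx1 led in TKO (0.58) and Tet1-KO TKO (0.589). Tbx5 was last in 6 of the 7 groups and next to last, ahead of Tbx18, in wild type of experiment 2.

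**Figure D2:**
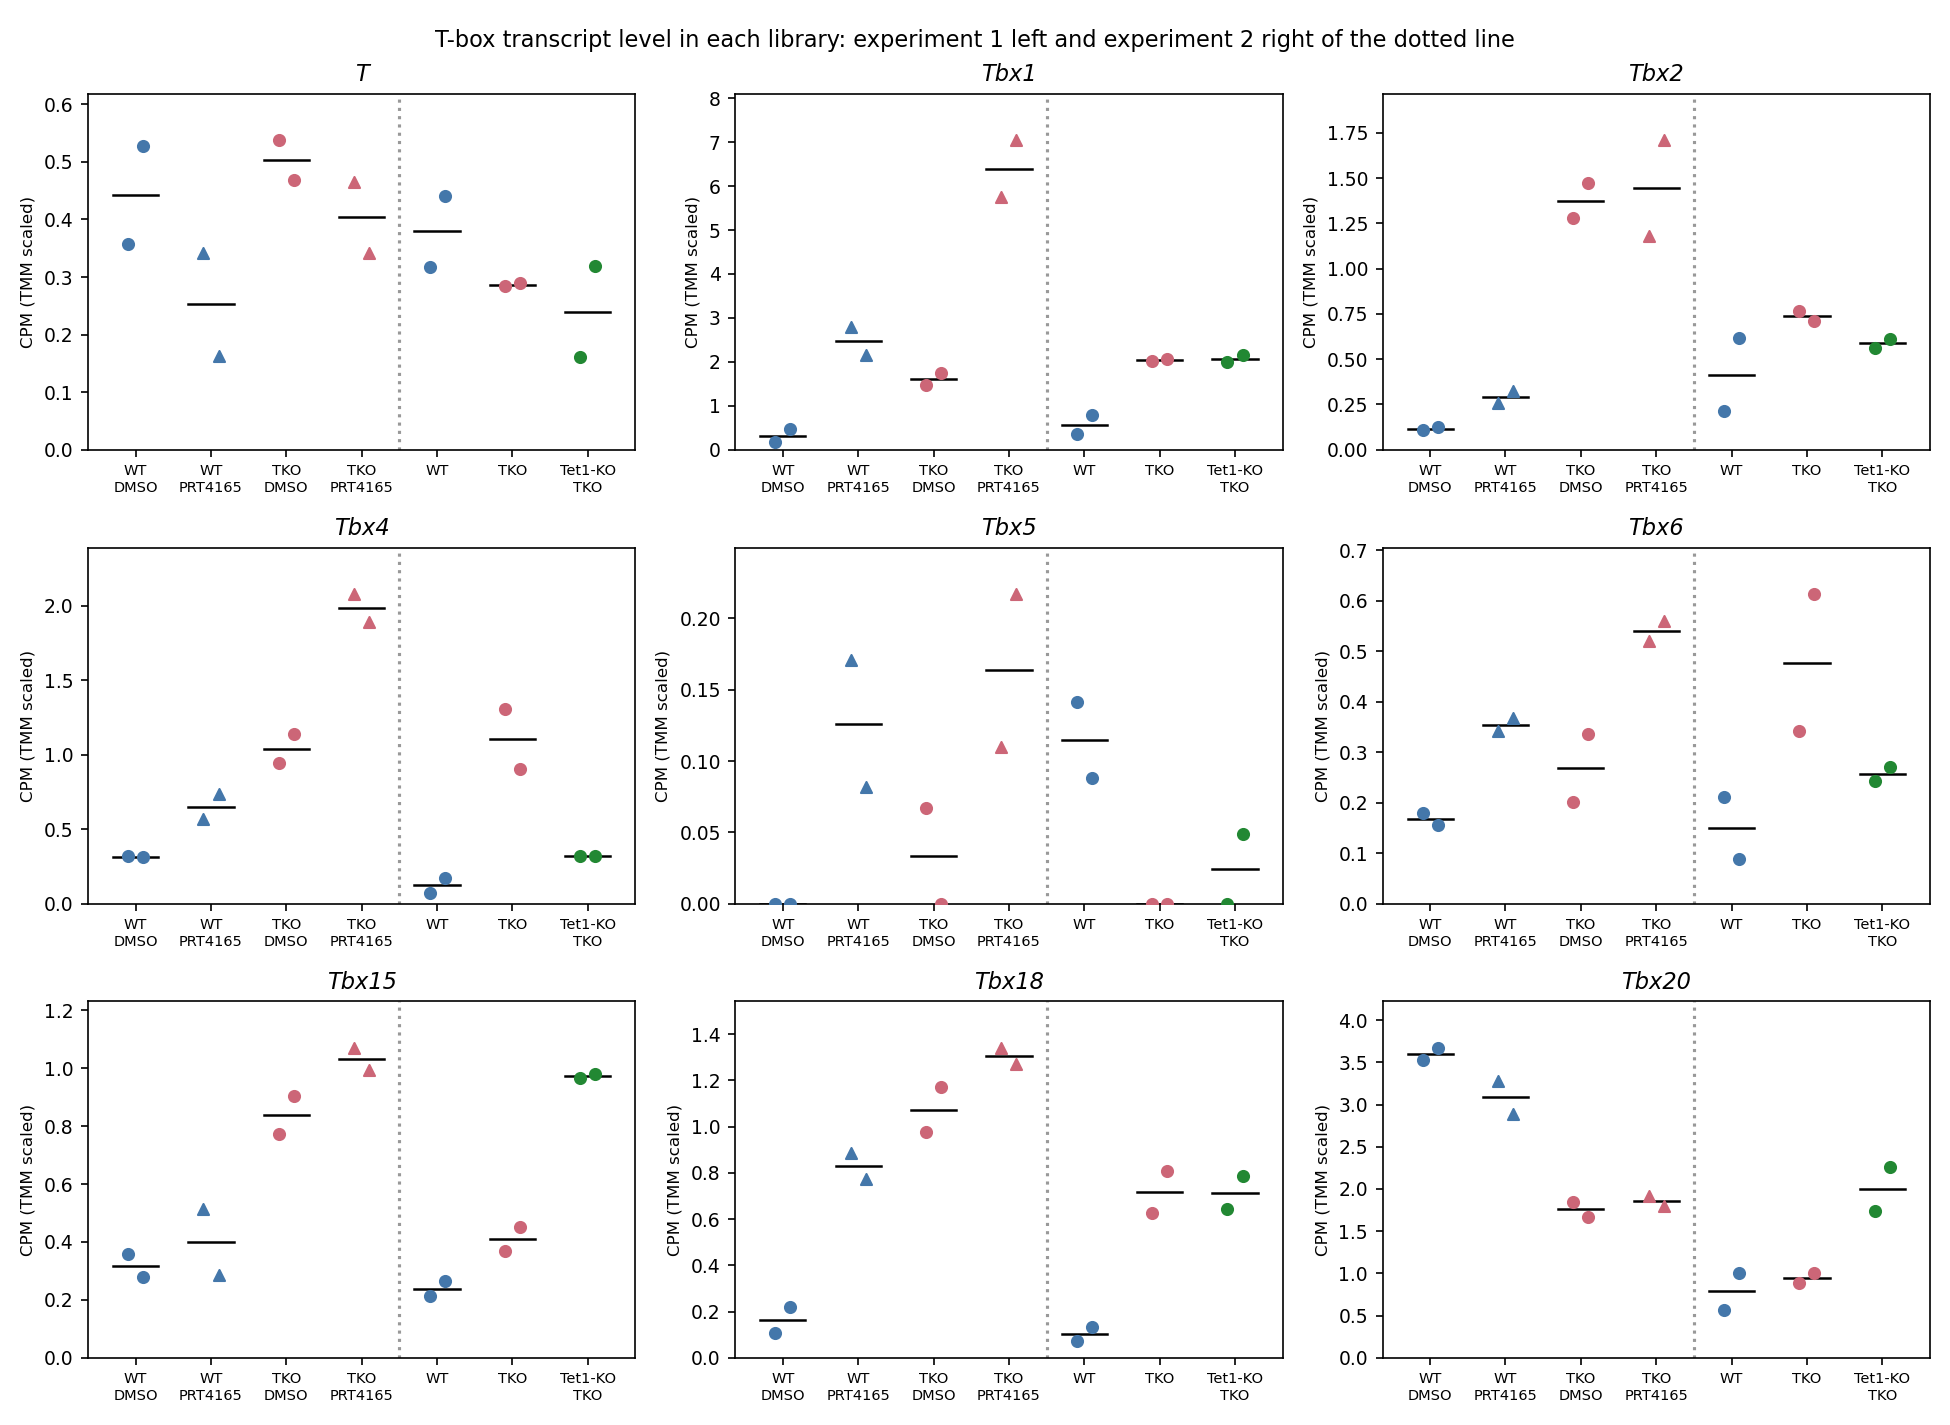
Level of each of the 9 T-box genes in CPM (vertical axes, linear from 0 and scaled for each gene) in the 14 libraries, by group (horizontal axes). Points are libraries (blue wild type, red TKO, green Tet1-KO TKO, triangles PRT4165) and black lines group means. Tbx1 reaches 5.75 and 7.05 CPM in TKO with PRT4165, and Tbx20 is highest in wild type with DMSO at 3.53 and 3.67.

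The labels were checked against the targeted genes. In experiment 1 Dnmt1 had a mean of 429 CPM in wild type and 128 in TKO with vehicle, Dnmt3a 101 and 41.4, and Dnmt3b 188 and 42.6. Tet1 had 766 CPM in TKO and 168 in Tet1-KO TKO of experiment 2. All 7 stem cell markers (Pou5f1, Nanog, Sox2 and others) were present in every group. Their summed level was 4900 to 5050 CPM in wild type with vehicle, 4350 to 4530 with PRT4165, 3750 to 3770 in TKO with vehicle and 2960 to 3110 with PRT4165. It was 5410 to 5630 CPM in untreated wild type, 4800 to 4820 in TKO and 5250 to 5580 in Tet1-KO TKO. With the inhibitor Sox2 fell by 0.74 in wild type (SE 0.04) and by 1.16 in TKO (SE 0.05), and Nanog by 0.20 (SE 0.04) and 0.46 (SE 0.04). The part of these markers' change in the T-box results was not tested.

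Tests were made on counts with edgeR's quasi-likelihood test, with the Benjamini-Hochberg adjustment made over every gene that passed a filter on low counts (16711 in experiment 1 and 16303 in experiment 2). A gene is called, and said to have risen or fallen, at an adjusted p under 0.05. Of the 9 genes, 8 passed the filter in each experiment and Tbx5 in neither. Tbx2, Tbx6 and Tbx18 had fewer than 10 counts in both wild-type vehicle libraries and passed only through other groups. The same holds for Tbx4, Tbx6, Tbx15 and Tbx18 in the wild-type libraries of experiment 2. Tbx1 (5 and 15 counts), Tbx4 (9 and 10) and Tbx15 (10 and 9) fell below 10 in a single wild-type vehicle library. They too needed other groups to pass, as did Tbx2 in experiment 2 (wild type, 6 and 14 counts). Such genes had to stand higher in some other library, and the counts and medians below describe the genes without supporting a shared direction.

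Loss of the 3 methyltransferases under vehicle went with higher levels of Tbx1, Tbx2, Tbx4, Tbx15 and Tbx18 and a lower level of Tbx20. That is 5 higher and 1 lower of the 8 genes tested, while T and Tbx6 were not called. Over all genes 34.8% were called higher and 34.2% lower in this comparison, 69% in all, so being called is the common outcome here and says little about these genes. Their median log2 change was 1.55, against 0.01 over all genes tested. The limit of the filter given above bears on this median and on those below. PRT4165 in wild-type cells went with a rise of 2 of the 8, Tbx1 and Tbx18, and no fall, where 19% of all genes were called higher and 18.7% lower, 37.6% in all. The median change was 1.04 against 0.01. PRT4165 in TKO cells also went with a rise of 2 of the 8, Tbx1 and Tbx4, and no fall, where 19.9% of all genes were called higher and 19.6% lower (39.5% in all), with medians of 0.29 and -0.00.

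Between the genotypes under PRT4165, 4 of the 8 were higher in TKO cells (Tbx1, Tbx2, Tbx4, Tbx15) and Tbx20 was lower, against 36.2% and 34% of all genes (70.2% in all). Cells with both the triple knockout and the inhibitor differed from cells with neither by a rise of 6 of the 8 (all but T and Tbx20) and a fall of Tbx20, against 39.6% and 36.7% (76.2% in all), and the median change was 2.17 against 0.03. These 5 comparisons share libraries with one another and are not independent. In experiment 2, TKO cells had 3 of the 8 genes higher (Tbx1, Tbx4, Tbx18) and none lower, against 25.9% and 24.3% of all genes (50.2% in all), with medians of 1.23 and -0.00. The loss of Tet1 in TKO cells went with a rise of Tbx15 and Tbx20 and a fall of Tbx4, against 11.6% and 10.3% (22% in all). Tet1-KO TKO cells differed from wild type by a rise of 4 of the 8 (Tbx1, Tbx15, Tbx18, Tbx20) and no fall, against 26.3% and 24.4% (50.7% in all).

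**Figure D3:**
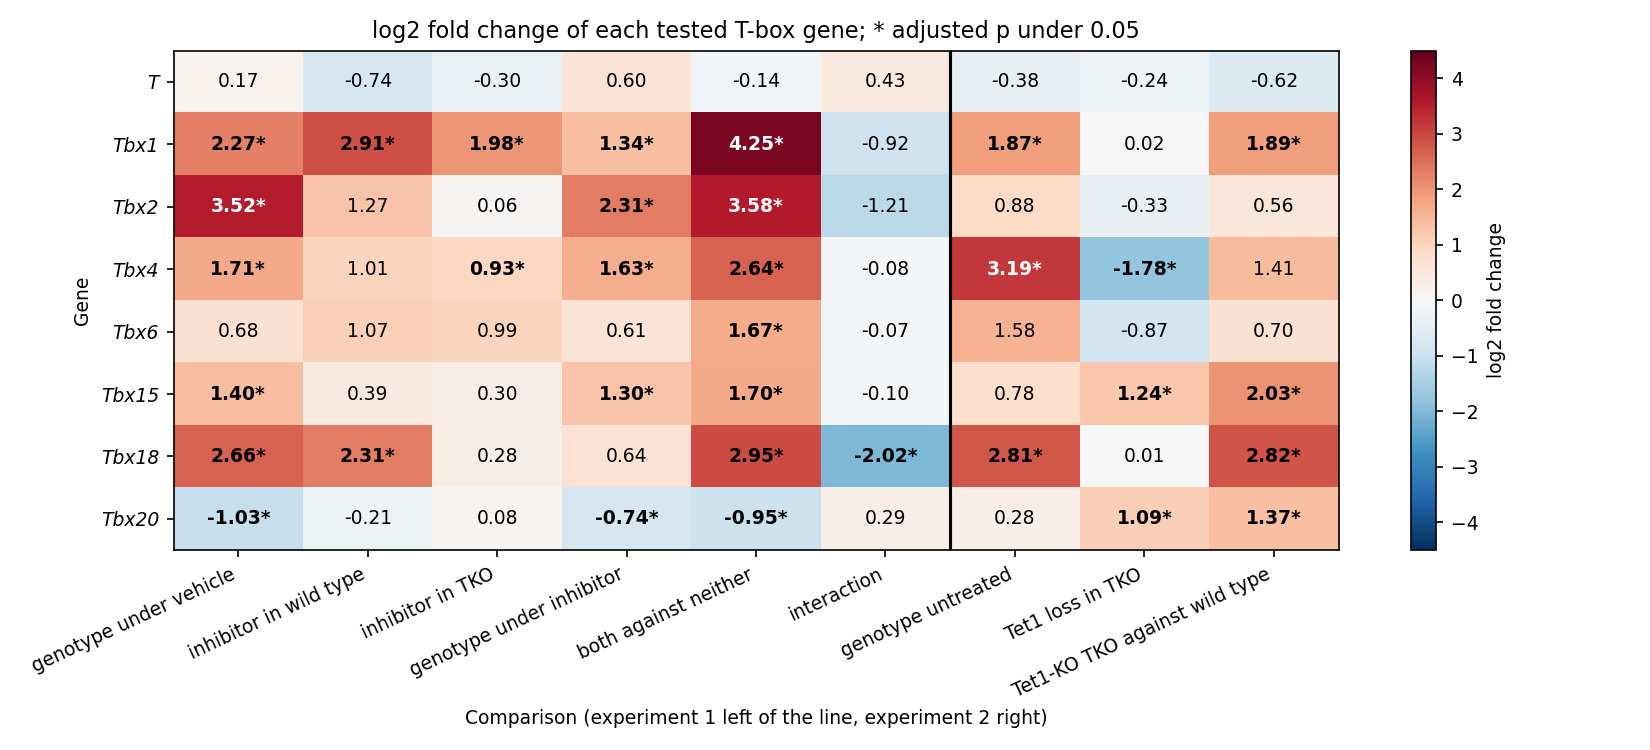
log2 fold change of the 8 tested T-box genes (rows) in 9 comparisons (columns, experiment 1 left of the black line). The interaction is the inhibitor's change in TKO minus that in wild type. Red is higher and blue lower, and an asterisk marks an adjusted p under 0.05. Tbx1 carries the highest value, 4.25 for both against neither, and T carries no asterisk.

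Tbx1, the pharyngeal regulator of the first subfamily, had the greatest inhibitor change of the 8 in each genotype. Wild-type cells had 0.179 and 0.466 CPM (5 and 15 counts) with vehicle and 2.79 and 2.16 CPM with PRT4165. In TKO cells it stood at 1.48 and 1.74 CPM with vehicle and at 5.75 and 7.05 CPM with PRT4165. No 2 of these 4 groups overlapped, and the order was TKO with inhibitor, wild type with inhibitor, TKO with vehicle, wild type with vehicle. The rise was 2.27 on the log2 scale with genotype (SE 0.35, edgeR adjusted p = 4.25e-06), 2.91 with inhibitor in wild type (SE 0.32, edgeR adjusted p = 1.54e-07) and 1.98 with inhibitor in TKO (SE 0.20, edgeR adjusted p = 2.53e-08). Both together gave 4.25 (SE 0.27), a 19-fold difference.

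The Tbx1 values that rest on wild-type vehicle cells depended on which libraries were in the fit. With libraries left out in turn the change ran from 1.76 to 3.12 for genotype. It ran from 2.43 to 3.80 for inhibitor in wild type and from 3.75 to 5.11 for both. The highest value of each came without wild-type vehicle replicate 2. On the log2 scale the 2 separate changes add up to 5.18, and the difference between the inhibitor's effects in the 2 genotypes was -0.92 (95% interval -1.79 to -0.06, edgeR adjusted p = 0.245), which was not called. It ranged from -1.81 to -0.45 when libraries were left out in turn, with these ends reached without wild-type vehicle replicates 2 and 1, and was called in none of those 8 fits. In experiment 2 wild-type libraries had 0.353 and 0.794 CPM of Tbx1, TKO libraries 2.02 and 2.06, and Tet1-KO TKO libraries 1.99 and 2.16. Wild type lay apart and the 2 knockout groups overlapped. TKO exceeded wild type by 1.87 (SE 0.36, edgeR adjusted p = 0.00111), or by 1.35 to 2.52 with libraries left out in turn. Tet1-KO TKO exceeded wild type by 1.89 (SE 0.36, edgeR adjusted p = 0.000885), or by 1.37 to 2.54 in such fits. The highest value of each came without wild-type replicate 2. The loss of Tet1 itself gave 0.02 with a 95% interval of -0.62 to 0.66, and -0.05 when libraries were scaled by size alone.

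Tbx18, which acts in somite, epicardial and ureter mesenchyme, rose with genotype under vehicle and with the inhibitor in wild type. Its levels were 0.107 and 0.218 CPM (3 and 7 counts) in wild type with vehicle and 0.884 and 0.774 with PRT4165. TKO cells had 0.976 and 1.17 CPM with vehicle and 1.34 and 1.27 with PRT4165. No groups overlapped, and the wild-type vehicle libraries were far below the rest. Tbx18 rose by 2.66 with genotype (SE 0.43, edgeR adjusted p = 6.91e-06) and by 2.31 with inhibitor in wild type (SE 0.45, edgeR adjusted p = 0.000269). In TKO cells the inhibitor gave 0.28 (95% interval -0.29 to 0.86), which was not called. Between genotypes under inhibitor the difference was 0.64 (SE 0.29, edgeR adjusted p = 0.0532), which was called under 2 other scalings, at 0.66 with DESeq2's size factor method in edgeR and at 0.79 with library size alone. Both together gave 2.95 (SE 0.41, edgeR adjusted p = 5.94e-07). With libraries left out in turn the changes ran from 2.26 to 3.25 for genotype and from 1.93 to 2.93 for inhibitor in wild type. For both they ran from 2.55 to 3.54. The highest value of each came without wild-type vehicle replicate 2.

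Tbx18 was the one gene of the 8 called in the test of whether the inhibitor's effect differed between genotypes, a test that called 3.89% of all genes, 1.77% higher and 2.12% lower. The difference was -2.02 (SE 0.54, edgeR adjusted p = 0.0352), where the sum of the separate changes would be 4.97 and 2.95 was observed. This call did not last under other settings. DESeq2 gave -2.04 with an adjusted p of 0.135, and leaving out a single library ended it in 7 of 8 cases. The edgeR value was -1.64 (adjusted p = 0.125) without wild-type vehicle replicate 1, -1.91 (0.125) and -2.11 (0.068) without wild-type PRT4165 replicates 1 and 2, -2.16 (0.0671) and -1.89 (0.135) without TKO vehicle replicates 1 and 2, and -2.07 (0.0742) and -1.99 (0.0925) without TKO PRT4165 replicates 1 and 2. It was -2.64 and still called (edgeR adjusted p = 0.0375) without wild-type vehicle replicate 2. The direction was the same in all 8.

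In experiment 2 wild-type libraries had 0.0706 and 0.132 CPM of Tbx18 (2 and 3 counts), TKO libraries 0.625 and 0.807, and Tet1-KO TKO libraries 0.644 and 0.785. The last 2 groups overlapped and wild type lay below both. TKO exceeded wild type by 2.81 (SE 0.57, edgeR adjusted p = 0.00152) and Tet1-KO TKO by 2.82 (SE 0.56, edgeR adjusted p = 0.00127). The loss of Tet1 gave 0.01, with a 95% interval of -0.82 to 0.83, and its sign changed with the settings. Exons of Tbx18 overlap the noncoding gene D030062O11Rik in the annotation. That gene was not among the counted ones, and the strand setting is not given in the sources used here, so reads from it could be included.

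Tbx15, which acts in skin and skeletal development, was called higher with genotype in experiment 1 and was not called with the inhibitor. In experiment 1 it stood at 0.357 and 0.280 CPM in wild type with vehicle, 0.513 and 0.285 in wild type with PRT4165, 0.774 and 0.904 in TKO with vehicle and 1.07 and 0.994 in TKO with PRT4165. The 2 wild-type groups overlapped, and all TKO libraries lay above them. The genotype difference was 1.40 under vehicle (SE 0.41, edgeR adjusted p = 0.00402) and 1.30 under inhibitor (SE 0.36, edgeR adjusted p = 0.00284). The inhibitor gave 0.39 in wild type (95% interval -0.57 to 1.36) and 0.30 in TKO (-0.36 to 0.95). In experiment 2 Tbx15 was at 0.212 and 0.265 CPM for wild type, 0.369 and 0.452 for TKO and 0.966 and 0.981 for Tet1-KO TKO, 3 groups without overlap. The genotype difference was 0.78 there (95% interval -0.30 to 1.86) and was not called. Tet1-KO TKO exceeded wild type by 2.03 (SE 0.44, edgeR adjusted p = 0.00214).

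Tbx20, a cardiac factor of the same subfamily, led the 9 genes per kilobase in wild-type vehicle cells and fell with genotype in experiment 1. It stood at 3.53 and 3.67 CPM (99 and 118 counts) in wild type with vehicle and 3.28 and 2.89 with PRT4165. TKO cells had 1.85 and 1.67 CPM with vehicle and 1.92 and 1.80 with PRT4165. All wild-type libraries lay above all TKO libraries, and within TKO the treatments overlapped. Tbx20 fell by 1.03 with genotype under vehicle (SE 0.19, edgeR adjusted p = 3.09e-05), a 2.04-fold difference, and by 0.74 under inhibitor (SE 0.18, edgeR adjusted p = 0.00106). The inhibitor gave -0.21 in wild type (95% interval -0.56 to 0.14) and 0.08 in TKO (-0.34 to 0.50).

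Experiment 2 did not show the same difference for Tbx20. Wild-type libraries had 0.565 and 1.01 CPM, TKO libraries 0.881 and 1.00, and Tet1-KO TKO libraries 1.74 and 2.26. Wild type and TKO overlapped and Tet1-KO TKO lay above both. TKO minus wild type was 0.28 (95% interval -0.54 to 1.09, edgeR adjusted p = 0.568), and -0.12 without wild-type replicate 1. Tet1-KO TKO exceeded wild type by 1.37 (SE 0.35, edgeR adjusted p = 0.00581), a call that ended without wild-type replicate 1 (0.97, adjusted p = 0.0617).

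Tbx2, a repressor of the second subfamily active in heart and limb, had the highest genotype change of the 8 under vehicle. It stood at 0.107 and 0.124 CPM (3 and 4 counts) in wild type with vehicle and 0.257 and 0.326 with PRT4165. TKO cells had 1.28 and 1.47 CPM with vehicle and 1.18 and 1.71 with PRT4165. Every TKO library lay above every wild-type library, and the TKO treatments overlapped. Tbx2 rose by 3.52 with genotype under vehicle (SE 0.45, edgeR adjusted p = 2.46e-07), an 11.5-fold difference, and by 2.31 under inhibitor (SE 0.37, edgeR adjusted p = 5.9e-06). The inhibitor gave 1.27 in wild type (95% interval -0.03 to 2.57) and 0.06 in TKO (-0.50 to 0.62), neither called. In experiment 2 the wild-type libraries had 0.212 and 0.617 CPM, the TKO libraries 0.767 and 0.710, and the Tet1-KO TKO libraries 0.564 and 0.613. Wild type overlapped with Tet1-KO TKO, and its 2 libraries differed widely. TKO minus wild type was 0.88 (95% interval -0.19 to 1.95) and was not called. With libraries left out in turn it ran from 0.25 to 1.78, the highest without wild-type replicate 2.

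Tbx4, a hindlimb and lung factor that neighbours Tbx2 on chromosome 11 with 1 gene, Gm11444, in between, rose with genotype in both experiments. It stood at 0.321 and 0.311 CPM in wild type with vehicle and 0.570 and 0.734 with PRT4165. TKO cells had 0.942 and 1.14 CPM with vehicle and 2.08 and 1.89 with PRT4165. No 2 groups overlapped. The genotype change was 1.71 under vehicle (SE 0.37, edgeR adjusted p = 0.000236) and 1.63 under inhibitor (SE 0.28, edgeR adjusted p = 1.56e-05). The inhibitor gave 1.01 in wild type (95% interval 0.17 to 1.85, edgeR adjusted p = 0.053), not called, and 0.93 in TKO (SE 0.25, edgeR adjusted p = 0.00507). The call in TKO ended without TKO vehicle replicate 1 (0.79, adjusted p = 0.0779), without TKO PRT4165 replicate 1 (0.84, adjusted p = 0.0531) and in DESeq2 (0.94, adjusted p = 0.0626). The 2 inhibitor effects differed by -0.08, with a 95% interval of -1.01 to 0.86. Both together gave 2.64 (SE 0.32), where the separate changes add up to 2.72.

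In experiment 2 wild-type libraries had 0.0706 and 0.176 CPM of Tbx4 (2 and 4 counts), TKO libraries 1.31 and 0.903, and Tet1-KO TKO libraries 0.322 and 0.319, again without overlap. TKO exceeded wild type by 3.19 (SE 0.55, edgeR adjusted p = 0.000464). With libraries left out in turn this ran from 2.62 to 3.90, the highest without wild-type replicate 2. Tet1-KO TKO minus wild type was 1.41 (95% interval 0.02 to 2.80) and was not called.

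Tbx5, the forelimb and heart factor, was at the limit of detection. Both wild-type vehicle libraries held 0 counts, which allows a level of up to 0.0498 CPM (3 counts over the group), and wild type with PRT4165 held 6 and 2. TKO held 2 and 0 with vehicle and 4 and 7 with PRT4165. In experiment 2 wild type held 4 and 2 counts, TKO 0 and 0 (allowing up to 0.0453 CPM) and Tet1-KO TKO 0 and 2. Such limits cover counting error only. Without the filter on low counts, edgeR called Tbx5 in the comparison of both conditions against neither (adjusted p = 0.0157) and in no other comparison, and the fitted size is not given because it depends on the prior count. Its neighbour Tbx3, a T-box gene of the same subfamily with a known place in stem cells, had 347 CPM on average in wild type with vehicle and 104 in TKO, and fell by 1.74 (SE 0.05, edgeR adjusted p = 8.73e-20).

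T, the marker of the primitive streak, was the only one of the 8 tested genes not called in any comparison of the 7 groups. Its counts were 10 and 17 in wild type with vehicle, 12 and 4 with PRT4165, 16 and 14 in TKO with vehicle and 17 and 11 with PRT4165, or 0.163 to 0.538 CPM. By mean level the order was TKO with vehicle, wild type with vehicle, TKO with PRT4165 and wild type with PRT4165. Neighbours in it overlapped, except that the PRT4165 groups only met, at 0.342 CPM. In experiment 2 wild-type libraries held 9 and 10 counts, TKO libraries 10 and 9, and Tet1-KO TKO libraries 6 and 13. Under vehicle the genotype change was 0.17 with a 95% interval of -0.74 to 1.08, and under no treatment -0.38 with an interval of -1.58 to 0.83. The inhibitor gave -0.74 in wild type (-1.77 to 0.30) and -0.30 in TKO (-1.21 to 0.60). Each of these 4 intervals reaches past 1 on the log2 scale in some direction, so a change of that size may have gone undetected at this depth. Next to T on chromosome 17, Pde10a, which encodes a phosphodiesterase, had 2.23 CPM on average in wild type with vehicle and 8.61 in TKO, and rose by 1.95 (SE 0.14, edgeR adjusted p = 1.13e-11).

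Tbx6, which directs paraxial mesoderm, rose only where both conditions were set against neither. Its counts were 5 and 5 in wild type with vehicle, 12 and 9 with PRT4165, 6 and 10 in TKO with vehicle and 19 and 18 with PRT4165. No 2 of these groups overlapped in CPM. The difference between TKO with inhibitor and wild type with vehicle was 1.67 (SE 0.50, edgeR adjusted p = 0.00459). The inhibitor gave 1.07 in wild type (95% interval -0.10 to 2.23) and 0.99 in TKO (0.05 to 1.94, edgeR adjusted p = 0.0885), neither called. In experiment 2 wild-type libraries held 6 and 2 counts, TKO libraries 12 and 19, and Tet1-KO TKO libraries 9 and 11, with a genotype difference of 1.58 (SE 0.62, edgeR adjusted p = 0.0527) that was called when libraries were scaled by size alone (1.63, adjusted p = 0.0451).

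Loss of Tet1 in TKO cells went with a change in 3 of the 8 genes, where 22% of all genes were called. Tbx4 fell by 1.78 (SE 0.42, edgeR adjusted p = 0.0109), Tbx15 rose by 1.24 (SE 0.38, edgeR adjusted p = 0.0352) and Tbx20 rose by 1.09 (SE 0.32, edgeR adjusted p = 0.0318), while the median of the 8 was -0.12 against 0.00 over all genes. In each of the 3 genes the TKO and Tet1-KO TKO libraries did not overlap. The same was true of Tbx2 and Tbx6, which were not called. This comes from the libraries that gave the calls and adds no support to them. DESeq2 called none of the 3, with adjusted p of 0.0627, 0.201 and 0.0944. The Tbx4 call in edgeR also ended without TKO replicate 1 (-1.48, adjusted p = 0.148) and without Tet1-KO TKO replicates 1 (-1.78, 0.0513) and 2 (-1.77, 0.0587). That of Tbx15 ended without TKO replicates 1 (1.11, 0.244) and 2 (1.39, 0.145) and Tet1-KO TKO replicates 1 (1.26, 0.107) and 2 (1.24, 0.119). That of Tbx20 ended without TKO replicates 1 (1.00, 0.182) and 2 (1.18, 0.108) and Tet1-KO TKO replicate 2 (0.90, 0.154). With 3 residual degrees of freedom, leaving out a library leaves few to estimate the spread. Dnmt3a also fell in this comparison, by 1.04 (SE 0.15, edgeR adjusted p = 0.000599).

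The genotype effect of experiment 1 was set against that of experiment 2 in a joint fit of all 14 libraries, chosen after the Tbx20 values were seen. It called 12.9% of all genes, 5.41% higher and 7.51% lower, and 2 of the 8 here. For Tbx2 the TKO change was greater in experiment 1 by 2.60 (SE 0.69, edgeR adjusted p = 0.0216), and for Tbx20 it was lower by 1.34 (SE 0.38, edgeR adjusted p = 0.0274). The Tbx2 call ended without either wild-type vehicle library (2.50, adjusted p = 0.081, and 2.71, 0.0711), without TKO vehicle replicate 2 (2.49, 0.0645), without untreated wild-type replicate 2 (1.70, 0.191) and without untreated TKO replicate 1 (2.65, 0.0509), and the value was 3.23 without untreated wild-type replicate 1. The Tbx20 call ended without wild-type vehicle replicates 1 (-1.37, 0.0612) and 2 (-1.32, 0.0693), TKO vehicle replicates 1 (-1.42, 0.0666) and 2 (-1.27, 0.0897), untreated wild-type replicate 1 (-0.95, 0.104) and untreated TKO replicates 1 (-1.44, 0.0602) and 2 (-1.26, 0.0814). For Tbx1 the experiments differed by 0.36 (95% interval -0.79 to 1.51) and for Tbx18 by -0.17 (-1.63 to 1.29). Vehicle, culture and time of the experiment cannot be told apart here. The joint fit gives each gene 1 estimate of spread for both experiments, though replicates of experiment 2 were more variable. The common coefficient of variation beyond counting error was 3.73% in experiment 1, 10.5% in experiment 2 and 7.26% in the joint fit. The spread of experiment 2 may thus be understated in these tests.

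**Figure D4:**
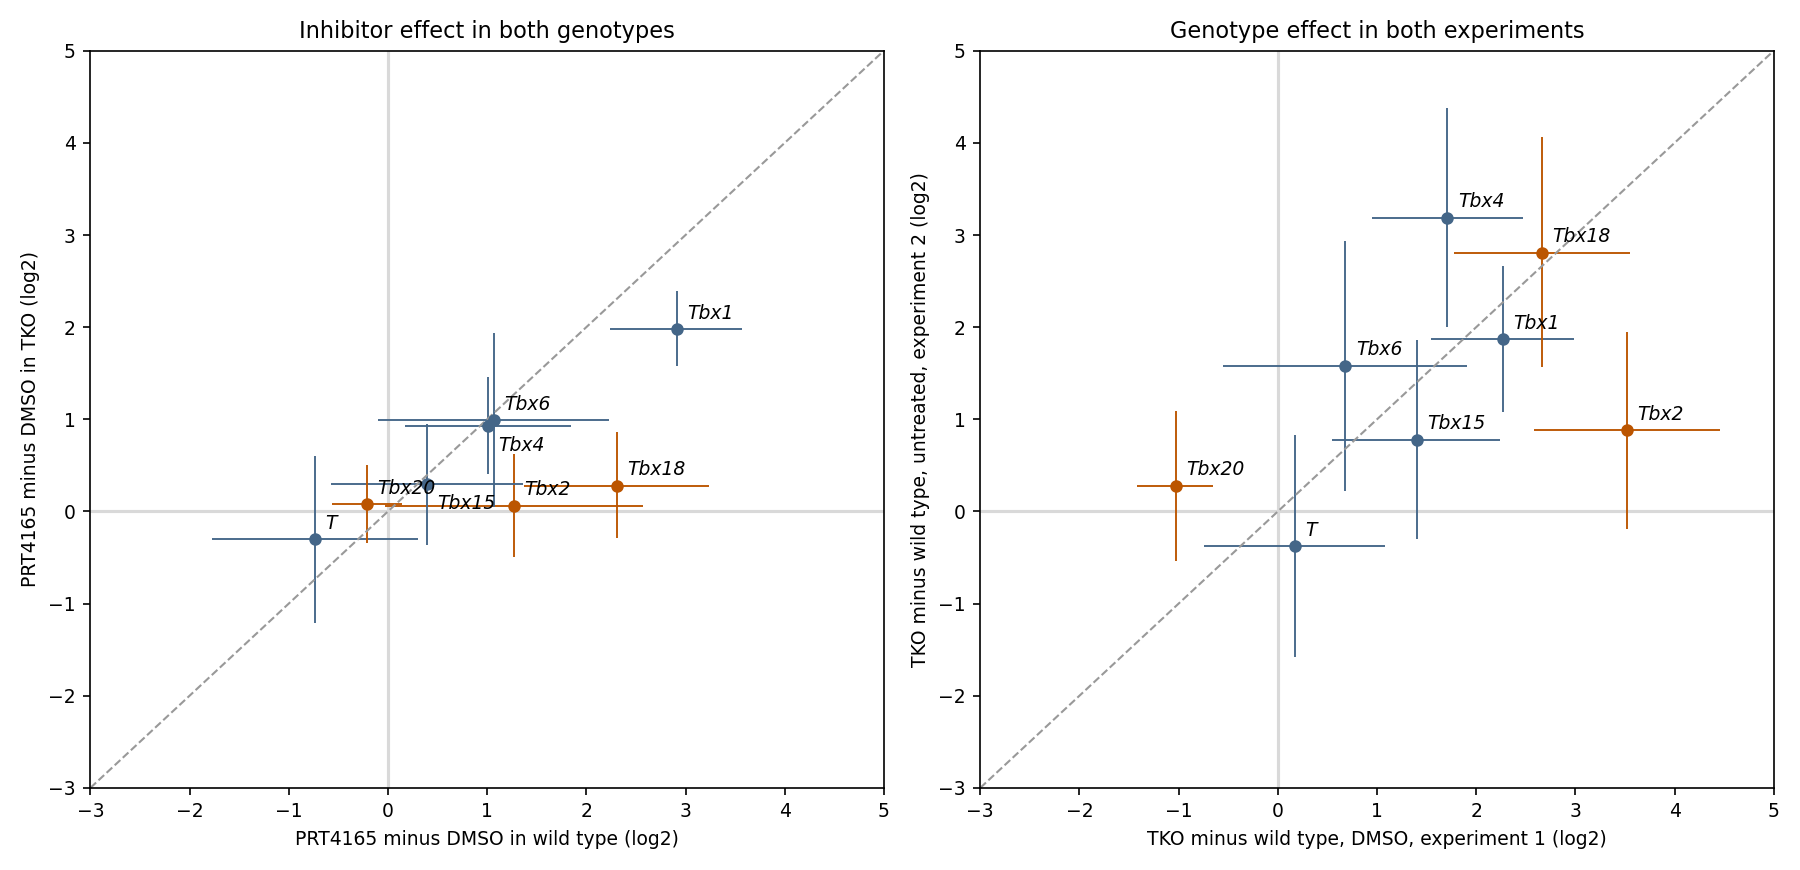
log2 change of the 8 tested T-box genes with 95% intervals (bars). Left, the inhibitor's change in wild type (horizontal) and in TKO (vertical). Right, the change with genotype under vehicle in experiment 1 (horizontal) and with no treatment in experiment 2 (vertical). The dashed line marks equal changes, and orange points are the genes called in a test of the difference shown in either panel. Tbx18 lies below the line on the left (2.31 against 0.28), and on the right Tbx2 lies below it (3.52 against 0.88) and Tbx20 above it (-1.03 against 0.28).

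The rest of the family offered a comparison. Of 8 other T-box genes (Tbx3, Eomes, Tbr1, Tbx10, Tbx19, Tbx21, Tbx22 and Mga), 5 passed the filter in experiment 1. Under vehicle 3 of these were higher in TKO cells and 1 lower: Tbx21, a T lymphocyte factor, by 2.86 (SE 0.30), Tbr1, a neuronal factor, by 2.68 (SE 0.87) and Mga, a repressor that also binds E-boxes, by 0.30 (SE 0.05), with Tbx3 lower. That stands beside 34.8% of all genes called higher and 34.2% lower. The inhibitor raised Tbr1 by 4.99 in wild type (SE 0.60, edgeR adjusted p = 4.97e-07), from 2 counts over the group to 70, and by 3.66 in TKO (SE 0.34, edgeR adjusted p = 6.74e-09). Tbx3 rose with the inhibitor by 0.24 in wild type (SE 0.05) and 0.41 in TKO (SE 0.05), so that Tbr1, Tbx3 and Tbx1 were each called for the inhibitor in both genotypes. Mga fell with it by 0.27 in wild type (SE 0.05, edgeR adjusted p = 0.000346), and Eomes, which acts in the primitive streak and trophoblast, rose by 0.81 in TKO (SE 0.15, edgeR adjusted p = 0.000189). With the loss of Tet1, Eomes rose by 1.76 (SE 0.19, edgeR adjusted p = 8.87e-05) and Tbx3 by 0.54 (SE 0.12, edgeR adjusted p = 0.00785).

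Genes known to act with these factors were followed as lists. Of 14 tested genes of presomitic mesoderm and somites, the setting of Tbx6, 10 were higher and 2 lower in TKO cells under vehicle, with a median of 2.30. Dll1, a Notch ligand, rose by 4.05 (SE 0.21) and Lfng, which modifies Notch, by 2.45 (SE 0.17), while Tcf15 fell by 1.98 (SE 0.05). Of 19 tested genes of the primitive streak and notochord, the setting of T, 12 were higher and 3 lower, with a median of 0.83. Lef1 rose by 2.90 (SE 0.22) and Axin2 by 1.84 (SE 0.14), both tied to Wnt signalling, and Cdx1 fell by 2.20 (SE 0.22). Of 16 tested pharyngeal genes around Tbx1, 9 were higher and 3 lower, with a median of 1.26. Among those called, Gbx2 fell by 2.10 (SE 0.06).

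Of 17 tested limb and mesenchyme genes, 12 were higher and 2 lower, with a median of 1.70. Twist1 rose by 3.03 (SE 0.18) and Prrx2 fell by 3.35 (SE 0.11). Of 18 tested heart genes 10 were higher and 5 lower, with a median of 1.32. Myh6, a cardiac myosin, rose by 2.31 (SE 0.13) and Bmp4, a signalling ligand, fell by 2.76 (SE 0.06). Some listed genes were near silent in wild type with vehicle, passed the filter through other groups and could hardly be called lower. Fewer than 10 counts over that group were held by 5 of the 14 somite genes, 2 of the 19 streak genes, 4 of the 16 pharyngeal genes, 2 of the 17 limb genes and 5 of the 18 heart genes, of which 4, 2, 4, 2 and 5 were among those called higher and 0 among those called lower. The counts of these lists therefore cannot be read against the 34.8% of all genes. With PRT4165 in wild type, 7 of 14 somite genes, 7 of 16 pharyngeal, 5 of 18 heart, 4 of 17 limb and 3 of 19 streak genes were higher. In the same order 1, 3, 0, 1 and 3 were lower, beside 19% of all genes higher and 18.7% lower. The same near-silent genes are among those tested, so these counts cannot be read against those shares either. In TKO cells the inhibitor called 3, 1, 3, 5 and 4 of these lists' genes higher and 2, 4, 0, 4 and 3 lower. All genes gave 19.9% and 19.6% there, and the same limit may hold.

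In experiment 2, TKO cells had 8 of 11 tested somite genes higher and 1 lower, 9 of 17 streak genes higher and 3 lower, 7 of 15 pharyngeal genes higher and 2 lower, 9 of 14 limb genes higher and 2 lower and 6 of 15 heart genes higher and 5 lower, beside 25.9% and 24.3% of all genes. The same limit of the filter holds here, for 0 to 2 genes of each list. With the loss of Tet1, 0 of 11 somite genes were higher and 2 lower, among them Dll3, which fell by 0.75 (SE 0.18). Of the streak genes 4 of 17 were higher and 2 lower, of the pharyngeal genes 1 of 15 higher and 1 lower, of the limb genes 3 of 14 higher and 2 lower, and of the heart genes 4 of 15 higher and 5 lower, beside 11.6% and 10.3% of all genes. Lef1 rose by 1.05 (SE 0.19) and Sp5, a Wnt target, fell by 1.39 (SE 0.27), while Lmx1b, a limb patterning factor, rose by 1.28 (SE 0.19) and En1 fell by 2.01 (SE 0.39). Myh6 fell by 1.23 (SE 0.15) and Hand1 rose by 1.52 (SE 0.20) in that comparison.

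Markers of other cell types moved with genotype too, in both directions within some lists. Under vehicle all 8 tested trophoblast and all 4 tested neural markers were higher. Of 9 tested fibroblast markers 6 were higher and 2 lower (Thy1, Pdgfrb). Of 7 cardiomyocyte markers 4 were higher and 1 lower (Myl7). Of 7 primitive endoderm markers 0 were higher and 5 lower. Over all genes 34.8% were higher and 34.2% lower, and the limit of the filter holds here too. The summed level of 8 trophoblast markers was 70.6 to 80 CPM in wild type with vehicle, where Elf5 and Tpbpa were at 0, and 779 to 812 in TKO with vehicle. That of 14 fibroblast markers was 16.1 to 16.7 CPM in wild type, with 6 of the 14 at 0 (Col3a1, Postn, Dcn, Lum, Prrx1, Fap), and 24.8 to 25.5 in TKO, with Fap at 0. That of 7 cardiomyocyte markers went from 11.8 to 12.3 CPM, with Actc1 at 0, to 29.2 to 29.9, and that of 4 neural ectoderm markers from 94.7 to 95.7, with Zic1 at 0, to 192 to 200. That of 7 primitive endoderm markers went from 163 to 183 CPM to 111 to 112, with none at 0. With PRT4165 in wild type the ranges were 97.3 to 106 for trophoblast (Tpbpa at 0), 15.7 to 17.2 for fibroblast (Dcn and Fap at 0), 12.6 to 13.9 for cardiomyocyte and 101 to 103 for neural markers. In TKO with PRT4165 they were 1080 to 1090, 24.2 to 26.1, 26.2 to 28.2 and 156 to 165. Primitive endoderm markers summed to 174 to 185 CPM in wild type with PRT4165 and to 95.1 to 96 in TKO with PRT4165.

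In experiment 2 trophoblast markers summed to 48.1 to 54 CPM for wild type, 137 to 149 for TKO and 475 to 645 for Tet1-KO TKO. Fibroblast markers summed to 19.2 to 20.5, 26.3 to 30.7 and 23.4 to 26 CPM, cardiomyocyte markers to 14 to 14.4, 23.8 to 26.3 and 12.4 to 13.3, and primitive endoderm markers to 115 to 202, 49.5 to 83.8 and 96.8 to 210. Neural ectoderm markers summed to 82.5 to 84.5, 180 to 182 and 129 to 136 CPM. Some genes, such as Hand1, Cdx2 and the cardiac ones, are in both a marker list and one of the lists above. The part of such cells in the T-box results was not tested.

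The genes next to the 8 tested T-box genes, or to Tbx5, on the chromosome were measured as well. Of the neighbours 11 were tested, and under vehicle 2 were higher (Bcas3 next to Tbx2, by 0.20, and Pde10a next to T, by 1.95) and 6 lower in TKO cells. Over all genes 34.8% were called higher and 34.2% lower in that comparison, 69% in all, so being called is common there. Brip1, next to Tbx4, gave 0.04 (95% interval -0.10 to 0.18), and Gnb1l, next to Tbx1, fell by 0.26 (SE 0.11, edgeR adjusted p = 0.0397). Both lie beside a gene that rose more than 3-fold. With the loss of Tet1, Bcas3 fell by 0.76 (SE 0.12, edgeR adjusted p = 0.00147) and Pde10a rose by 2.36 (SE 0.24, edgeR adjusted p = 6.81e-05). Pde10a gave -0.07 (95% interval -0.67 to 0.54) with genotype in experiment 2, and its genotype change differed between the experiments by 1.98 (SE 0.31, edgeR adjusted p = 0.000657).

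The protein-coding genes whose log2 CPM ran most like each T-box gene were sought among 14219 genes tested in both experiments, by the mean of 2 Pearson correlations, over the 8 libraries of experiment 1 and the 6 of experiment 2. The closest were Gm10800 for Tbx1 (0.970), Prkar1b for Tbx18 (0.981), Ap1m2 for Tbx15 (0.984), Plekhf2 for Tbx20 (0.941), Atf7ip2 for Tbx2 (0.969), Onecut2 for Tbx4 (0.977), Kbtbd13 for T (0.932) and Arfgef2 for Tbx6 (0.959). These are the highest of many values over few libraries that share groups and scaling, and are given as a description only.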

How the data were processed

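The 14 libraries were made from poly(A) RNA. Each experiment has its own table of raw counts, deposited by the authors as whole reads per gene without scaling. The submitters' processing notes name the tools TopHat2 2.0.2, Bowtie 0.12.8 and HTSeq 0.5.3p9 with the mm9 build. The strand setting and annotation of the counting, and the dose and duration of PRT4165, were not given in the sources used here.

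Gene symbols, exon lengths and gene order came from the GENCODE M21 annotation, a newer build, where 32919 of 37991 gene IDs had a match. Total counts per library ranged from 25588815 to 37399837 (experiment 1) and from 23354015 to 41844823 (experiment 2). Genes were kept by filterByExpr (minimum count 10, minimum total 15), scaled by TMM and fitted for each experiment apart, all groups together without covariates, with edgeR 4.0.16 and limma 3.58.1 under R 4.3.3. Residual degrees of freedom were 4 and 3. Contrasts had two-sided quasi-likelihood F-tests with Benjamini-Hochberg adjustment over all genes tested, and the script was tested on simulated data. DESeq2 1.42.0, other scalings, no filter, a replicate block and leaving out each library were alternatives, and the joint fit of both experiments was added after seeing the data. A group at 0 was given a floor of 3 counts, which reflects counting error alone, as no molecular identifiers are named for these reads.

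The members, the lists and the tests were chosen with earlier results of these data known. Every T-box gene of the set is named. From each list, up to 3 called genes per direction with the smallest p and libraries that do not overlap could be named, of which 1 or more were taken, and the nearest protein-coding gene on each side of a member was followed. Promoter windows came from RefSeq (GRCm38.p6). Replicates of a group differed by more than sampling noise.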

Additional observations from a re-analysis of the deposited data

Results flagged for a closer look

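The inhibitor's effect on Tbx18 differed between genotypes, by an edgeR test of the difference itself, with a value of -2.02 on the log2 scale (TKO minus wild type, adjusted p = 0.0352). Tbx18 rose by 2.31 in wild type and gave 0.28 in TKO cells. The call was lost in DESeq2 (-2.04) and in 7 of 8 fits that left out a library.

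The genotype effect differed between the experiments for 2 genes in the joint edgeR fit. For Tbx2 the difference was 2.60 (3.52 under vehicle against 0.88 untreated, adjusted p = 0.0216), and for Tbx20 it was -1.34 (-1.03 against 0.28, adjusted p = 0.0274). DESeq2 also called both (2.68, adjusted p = 0.0285, and -1.32, adjusted p = 0.0491). The edgeR call was lost in 5 of the 14 fits that left out a library for Tbx2 and in 7 of 14 for Tbx20. Experiment and vehicle cannot be told apart in this comparison. The joint fit also shares its estimate of spread between the experiments, though replicates of experiment 2 were more variable.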

How the results depend on the processing

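Scaling by DESeq2's size factor method or by library size alone, dropping the filter, and DESeq2 left most results on the same side of the threshold. DESeq2 called 1 T-box gene and not 2 for the inhibitor in TKO, 0 and not 1 for the interaction and 0 and not 3 for the loss of Tet1, and 415 and not 650 genes in all for the interaction. Library size alone moved the median of all genes from 0.01 to 0.16 for genotype under vehicle, from 0.03 to 0.18 for genotype under inhibitor, from 0.03 to 0.17 for both and from -0.01 to 0.12 between experiments. It also moved the share of calls that were higher from 50.5% to 63.5%, 51.5% to 63.8%, 52.9% to 40.7% (loss of Tet1) and 41.9% to 72.9% (between experiments). For the loss of Tet1 the sign turned with library size alone in Tbx1 (-0.05) and Tbx18 (-0.06) and in DESeq2 for Tbx18 (-0.00), none of them called.

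Leaving out 1 library at a time gave 1 to 2 T-box genes called for the inhibitor in TKO, 0 to 1 for the interaction, 0 to 3 for the loss of Tet1 and 0 to 2 between experiments. Over all genes it gave 304 to 913 calls for the interaction, 1633 to 4510 for the loss of Tet1 and 980 to 3299 between experiments. These fits have fewer samples. Changes of sign were limited to changes that were not called: T from -0.09 to 0.47 under vehicle, -0.40 to 0.17 for both and -0.81 to 0.15 for the loss of Tet1, Tbx15 from -0.14 to 0.70 for the inhibitor in wild type, Tbx2 from -0.23 to 0.29 and Tbx20 from -0.01 to 0.14 for the inhibitor in TKO, and in the interaction Tbx4 from -0.27 to 0.08, Tbx6 from -0.40 to 0.32 and Tbx15 from -0.40 to 0.44. In experiment 2 they were Tbx20 from -0.12 to 0.73 with genotype, Tbx1 from -0.04 to 0.08 and Tbx18 from -0.17 to 0.20 with the loss of Tet1, and Tbx2 from -0.07 to 1.46 between Tet1-KO TKO and wild type. Between experiments they were Tbx1 from -0.28 to 1.24 and Tbx18 from -0.63 to 0.44.

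A replicate block changed the call of no T-box gene and turned the sign of 1 value, Tbx18 with the loss of Tet1 (-0.00). With the block 632 genes were called for the interaction and 4497 for the loss of Tet1. The labels number the replicates but name no shared culture or day. Same-numbered libraries had correlated deviations of -0.03 to 0.04 in experiment 1, and of 0.11, 0.13 and 0.24 in experiment 2.

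Depth limits these results, since most group levels were below 2 CPM, changes in T and Tbx6 had wide intervals, and Tbx5 had too few counts to be tested.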

Other observations

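Tbr1 was outside the 9 genes, but its inhibitor change in wild type, 4.99 on the log2 scale, was greater than that of Tbx1, 2.91, in the same comparison. It went from 2 counts over both wild-type vehicle libraries to 70 with PRT4165, and from 14 to 208 in TKO cells. In the untreated cells of experiment 2 it held 7 counts in wild type, 17 in TKO and 11 in Tet1-KO TKO. Uncx, a somite homeobox gene, also rose with PRT4165 in both genotypes, by 4.16 (SE 0.45, edgeR adjusted p = 9.51e-08) and 3.51 (SE 0.32, edgeR adjusted p = 7.56e-09), and so did Pax9, a pharyngeal pouch gene, by 4.68 (SE 0.67, edgeR adjusted p = 5.44e-06) and 1.86 (SE 0.41, edgeR adjusted p = 0.000753).

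Aldh1a2, which makes retinoic acid, rose with PRT4165 by 3.67 in wild type (SE 0.20, edgeR adjusted p = 4.63e-13) and by 1.29 in TKO (SE 0.13, edgeR adjusted p = 2.23e-08). Pitx1, a hindlimb factor that acts with Tbx4, rose by 2.47 (SE 0.33) and 1.85 (SE 0.29). With the loss of Tet1 it rose by 2.43 (SE 0.55, edgeR adjusted p = 0.009), where Tbx4 fell by 1.78. That fall of Tbx4 was not called by DESeq2 (adjusted p = 0.0627), and its edgeR call did not last in every fit that left out a library.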
